A study of Caenorhabditis elegans with 15 samples.

Results

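The genes of the cytoplasmic ribosome's proteins were followed through an RNA immunoprecipitation (IP) of GLD-1 in Caenorhabditis elegans. The members were the genes whose symbol in the platform annotation starts with rpl- (large subunit) or rps- (small subunit), each represented by the 1 of its own probe sets with the highest mean over all arrays. This rule found 75 genes, 45 of the large and 30 of the small subunit, among 17118 genes with a probe set of their own. It used symbols and overall signal, and no comparison between groups. The chosen probe sets of 53 of the 75 genes carry a suffix by which the array maker marks sequence shared with other transcripts.

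A ribosome is built from a small subunit, which reads the mRNA, and a large subunit, which joins the amino acids and releases the chain through an exit tunnel. Each subunit is ribosomal RNA with a set of small, mostly basic proteins, needed in like numbers in every cell, so their mRNAs are among the most abundant of animal cells. GLD-1 is a STAR-family RNA-binding protein of the hermaphrodite germline that represses the translation of many mRNAs used later in oocytes and embryos. Abundant mRNAs made in all tissues are commonly looked at in such IPs as a measure of what comes down without specific binding.

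Whole young adult worms were used, and 15 Affymetrix arrays fall into 5 groups of 3. In set 1, anti-FLAG IPs were made from a strain with gld-1(q485), a mutant allele, and the transgene ozIs2 [gld-1::gfp::flag], which encodes GLD-1 joined to GFP and FLAG, against anti-MYC IPs of the same strain, which carries no MYC tag by its name. In set 2, anti-FLAG IPs of that strain (tagged) stood against anti-FLAG IPs of wild type (N2), which lacks the transgene. The last group was total RNA of the tagged strain (input), and the set to which the inputs belong is not stated in the sources used here. Strategy 1 is FLAG minus MYC and strategy 2 is tagged minus N2, and the strategies share no array. Each IP also received 10 µg of mouse brain RNA as carrier. The labels do not say whether replicates came from separate cultures, so p-values measure the spread between these samples, which may be technical.

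The targeted gene, gld-1, had 8.29, 9.63 and 9.46 (log2 signal) in the FLAG IPs and 2.98, 3.27 and 4.69 in the MYC IPs, and 10.49, 10.13 and 9.90 in tagged IPs against 5.32, 4.88 and 3.67 in N2 IPs. The groups did not overlap in either set. The differences were 5.48 and 5.55, and over the mean of the probe sets of gld-1 they were 2.92 and 3.03. The FLAG arrays had 550 to 2170 probe sets with a signal of at least log2 5, the MYC arrays 194 to 820, the tagged arrays 1265 to 1784 and the N2 arrays 221 to 435, against 7632 to 9352 for input. Of the marker genes of worm tissues that were measured, those of oocytes, germline, intestine, muscle, hypodermis and neurons had median input levels of 7.81 to 11.34, and the 3 of pharynx a median of 3.18. The 4 sperm markers had a median input level of 11.58 and a highest of 13.10, and the lowest of them, spe-9, had 2.43, near the lowest value of the arrays.

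The ribosomal protein genes were measured on every IP array, at levels that moved together from array to array. The median of the 75 genes was 5.75, 7.99 and 9.85 on the FLAG arrays of set 1 and 6.51, 7.71 and 9.40 on the MYC arrays. In set 2 it was 7.81, 7.43 and 6.73 on tagged arrays and 7.98, 7.11 and 6.44 on N2 arrays. The ranges of both pairs overlapped almost wholly, and the largest gaps lay between replicates of 1 group. In input it was 12.95, 13.15 and 13.21, above the highest IP array. The group means of these medians were 7.86 ± 2.05 for FLAG, 7.87 ± 1.45 for MYC, 7.32 ± 0.55 for tagged, 7.17 ± 0.77 for N2 and 13.10 ± 0.13 for input (SD, n = 3 arrays each). In bulk RNA, fewer cells of a type and less RNA per cell cannot be told apart.

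**Figure D1:**
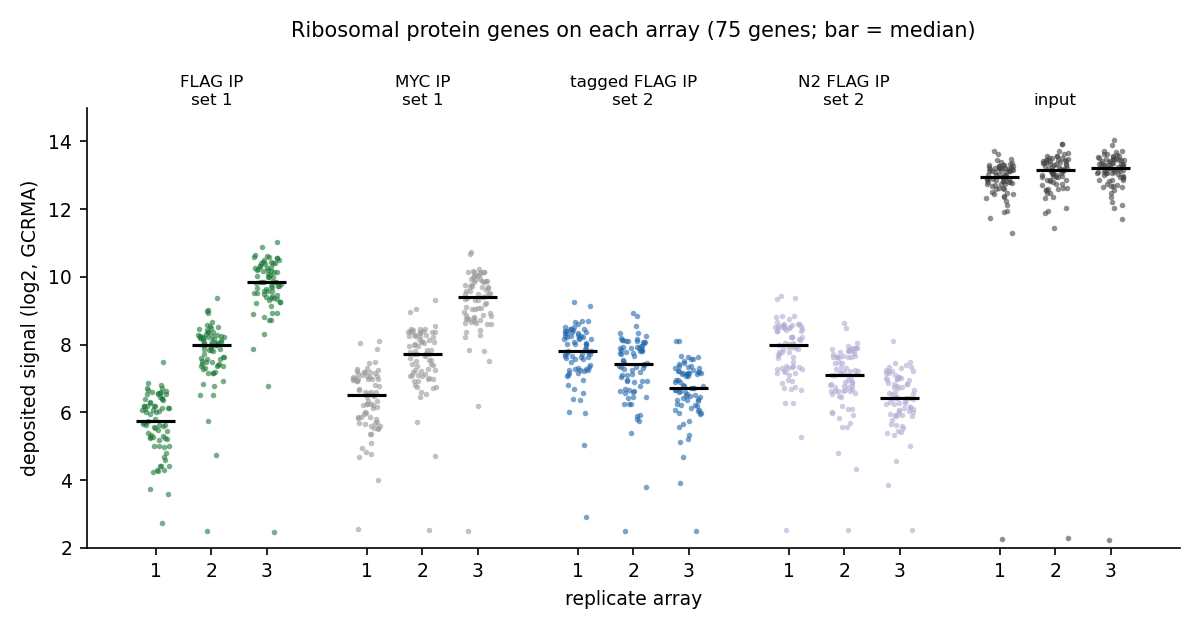
Deposited log2 GCRMA signal (y axis) of the 75 ribosomal protein genes on each of the 15 arrays (x axis, replicate number within each group); points are genes, bars are medians. The medians of FLAG (5.75 to 9.85) and MYC arrays (6.51 to 9.40) overlap, as do those of tagged (6.73 to 7.81) and N2 arrays (6.44 to 7.98), all below input; the gene near the bottom of every array is rpl-42.

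Only rpl-42 among the 75 lay near the lowest value of the arrays throughout. Its probe set had 2.74, 2.49 and 2.46 in FLAG, 2.54, 2.53 and 2.50 in MYC, 2.92, 2.48 and 2.49 in tagged, 2.52, 2.52 and 2.53 in N2 and 2.25, 2.29 and 2.22 in input. The lowest value that any probe set took was itself 2.46 to 2.53 on IP arrays and 2.21 to 2.28 on input arrays, so no level of rpl-42 can be read from it. The other 74 genes had input means of 11.48 (rpl-41.1) to 13.86 (rpl-36A), and probe sets of different genes cannot be ranked as amounts of RNA.

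How many other probe sets exceeded the ribosomal protein median on an array differed between the IPs with GLD-1 and those without. It was 267, 214 and 62 on FLAG arrays and 26, 32 and 21 on MYC arrays. It was 352, 319 and 395 on tagged arrays and 27, 25 and 30 on N2 arrays. The inputs had 38, 33 and 34. Only the chosen probe sets were left out, so further probe sets of ribosomal protein genes can be among those counted. In both sets every IP with GLD-1 lay above every control IP, while every control IP lay below every input. With 3 arrays against 3 an exact permutation test cannot go below p = 0.1, so none was run on this count.

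The spread of a ribosomal protein gene between replicate arrays was large in the IPs and nearly all of it was shared by the whole family. The median SD of the 75 genes was 2.04 in FLAG, 1.44 in MYC, 0.557 in tagged, 0.720 in N2 and 0.145 in input (log2, 3 arrays each). After the ribosomal protein median of each array was taken off, it was 0.189, 0.145, 0.129, 0.132 and 0.0764 in the same groups. A shift common to the array made up 97.3% of the members' sum of squares between replicates in FLAG, 97.0% in MYC, 91.7% in tagged, 94.4% in N2 and 61.2% in input. Between the lowest and highest array of a group, the median spanned 17.1-fold in FLAG, 7.39-fold in MYC, 2.11-fold in tagged, 2.91-fold in N2 and 1.19-fold in input. Both groups of set 1 were spread more widely than either group of set 2.

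Single genes followed the common shift to differing degrees. In FLAG, rps-7 had the largest SD, 2.57, with 4.30, 7.32 and 9.41 on the 3 arrays, and rpl-26, whose product sits by the exit tunnel, the smallest apart from rpl-42, 1.49. Both genes were lowest on replicate 1 and highest on replicate 3, as the family median was. In tagged IPs the SDs ran from 0.215 (rpl-10a) to 0.940 (rpl-29), and in N2 IPs from 0.460 (rpl-7A) to 1.07 (rps-29), again apart from rpl-42. The pattern over genes was alike from array to array: across the 74 genes without rpl-42, Pearson r was 0.886 to 0.974 between replicate IP arrays and 0.935 to 0.977 between the means of IP groups. Between IP means and input it was 0.638 to 0.680. These are correlations over genes, which share array, probe sequences and amplification, and are given as a description.

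Against input, 74 of the 75 genes were lower in each kind of IP on the deposited scale, and rpl-42 alone was higher, by 0.27 to 0.38, at a probe set near the lowest value of every array. The median difference on the log2 scale was -5.26 for FLAG minus input, -5.82 for tagged, -5.19 for MYC and -5.90 for N2, and the direction flipped for MYC and N2 under quantile normalization (medians 0.07 and 0.08) and cyclic loess (1.70 and 1.47). The same scalings gave medians of -1.26 and -1.62 for FLAG and of -2.27 and -2.61 for tagged. Over all 22548 probe sets tested, 52.7% were called lower in FLAG, 51.7% in tagged, 53.1% in MYC and 53% in N2, and 38.5%, 39%, 39.2% and 39.5% were called higher (limma, Benjamini-Hochberg adjusted p under 0.05). The median of all probe sets was -0.731, -0.639, -0.762 and -0.753 in these comparisons on the deposited values, and under cyclic loess it was -0.04, -0.04, -0.03 and -0.03. The calls of higher can include probe sets at the arrays' lowest values, which were higher on IP than on input arrays. A further fit kept only probe sets that reached a signal of log2 5 on at least 3 arrays. It called 0, 14, 0 and 1 of them higher, in the same order. Their median was -4.15, -4.08, -4.77 and -4.85, against -5.27, -5.83, -5.21 and -5.90 for the 74 members kept. The 3 arrays could be those of input alone. A mean of at least 5 was reached by 8566 probe sets in input, against 308 to 1495 in the IP groups. The filter thus favours probe sets high in input, and these counts and medians cannot place the members among all probe sets. The IPs and inputs also differed in the carrier RNA and in the amount of RNA labelled, whose part in the difference was not tested. For N2, strain and IP cannot be told apart.

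**Figure D2:**
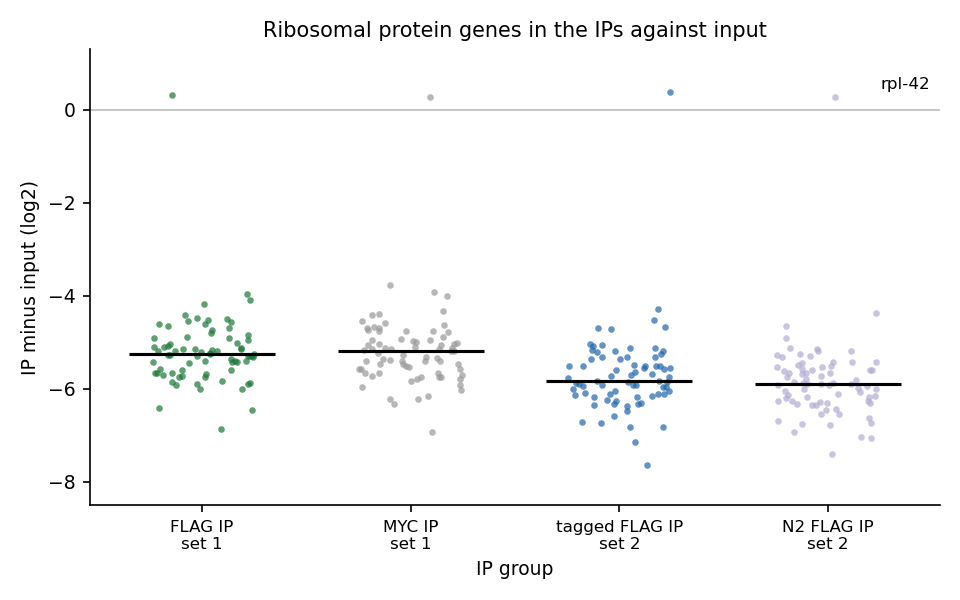
Difference between each IP group and input (y axis, log2) for the 75 ribosomal protein genes, by IP group (x axis); points are genes and bars are medians, -5.26 for FLAG, -5.19 for MYC, -5.82 for tagged and -5.90 for N2. All genes but rpl-42 lie below 0 on the deposited scale shown; for MYC and N2 the medians turn positive under quantile normalization and cyclic loess.

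Within the family the same genes lay at the ends of this difference in all 4 IP groups, which share the input arrays. The rpl-23A.1 gene, 1 of a pair for a protein at the exit of the tunnel, had 3.58, 4.73 and 6.78 in FLAG, 4.0, 4.72 and 6.18 in MYC, 5.03, 3.80 and 3.91 in tagged and 5.29, 4.34 and 3.85 in N2, against 11.75, 11.88 and 12.04 in input. It had the largest difference in every group, -6.86, -6.92, -7.64 and -7.40 in that order of IPs. The smallest differences were those of rpl-41.2 (-4.18, -3.78, -4.30 and -4.37), of rps-23, a protein of the decoding centre (-3.97, -3.91, -4.53 and -4.66), and of rps-25 (-4.10, -4.01, -4.67 and -4.92). The counterpart of rps-25 in yeast and human cells is known for its part in initiation at viral internal entry sites.

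In the comparison the study was designed for, a fit of group means to the deposited values called no ribosomal protein gene in either strategy. In strategy 1, 0 of 75 were called by limma at adjusted p under 0.05, against 2.41% of all probe sets called higher and 0.0577% called lower, and 0 of 75 had an unadjusted p under 0.05. In strategy 2, 0 of 75 were called, against 5.47% higher and 0.173% lower of all probe sets, and again 0 at an unadjusted p under 0.05. The median difference was -0.03 in strategy 1 and 0.10 in strategy 2, where all probe sets had -0.03 in both. Most probe sets lay near the lowest values of the IP arrays. Those that reached a signal of log2 5 on at least 3 arrays had medians of 1.74 and 2.42. The 74 members kept by this filter had -0.04 and 0.10, with 0 called. The 3 arrays could be those of 1 group. On other scalings the members' median was not near 0: quantile normalization gave -1.56 and -2.44, with 22 and 74 genes called lower, and cyclic loess gave -3.18 and -4.22, with 73 and 74 called lower. Centring each array on its median gave -0.01 and 0.12, with 0 called in either strategy. None of these scalings moved the median of all probe sets by over 0.1 in the strategies. The shares over all probe sets moved with the arrays fitted: with the 6 arrays of a comparison alone they were 0% higher and 0% lower in strategy 1 and 11.5% and 28.6% in strategy 2, and without FLAG replicate 1 strategy 1 called 2090 probe sets higher and 442 lower, against 543 and 13 with all arrays. With any other array of set 1 left out strategy 1 called 196 to 482 higher, and with any array of set 2 left out strategy 2 called 669 to 1011 higher, against 1233 with all arrays. In all of these fits 0 members were called. The 28.6% called lower can include probe sets at the arrays' lowest values, which were lower on tagged than on N2 arrays.

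The interval of a typical member was wide, most of all in set 1. The median 95% interval was -2.39 to 2.33 for strategy 1, against -2.22 to 2.49 for strategy 2, with a median SE of 1.03 in each, since the fit pools the spread of both sets. From the 6 arrays of each strategy alone the median SE was 1.31 in strategy 1 and 0.479 in strategy 2, with median intervals of -3.45 to 3.38 and of -1.17 to 1.35, and 0 members were called or had an unadjusted p under 0.05 in either. These fits took the arrays of the groups as unpaired, and fits with a block by replicate number are given at the end. Differences beyond 0.5 in size were seen for 1 gene in strategy 1 and 4 in strategy 2. Signs were mixed, with 30 positive and 45 negative in strategy 1 and 55 positive and 20 negative in strategy 2. In strategy 1 the median followed single arrays: without FLAG replicate 1 it was 0.99 and without FLAG replicate 3 it was -1.04, and without MYC replicate 1 or 3 it was -0.74 or 0.71. In strategy 2 it was -0.13 without tagged replicate 1 and 0.37 without tagged replicate 3, and 0.48 and -0.24 without N2 replicates 1 and 3, with 0 genes called in each case.

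**Figure D3:**
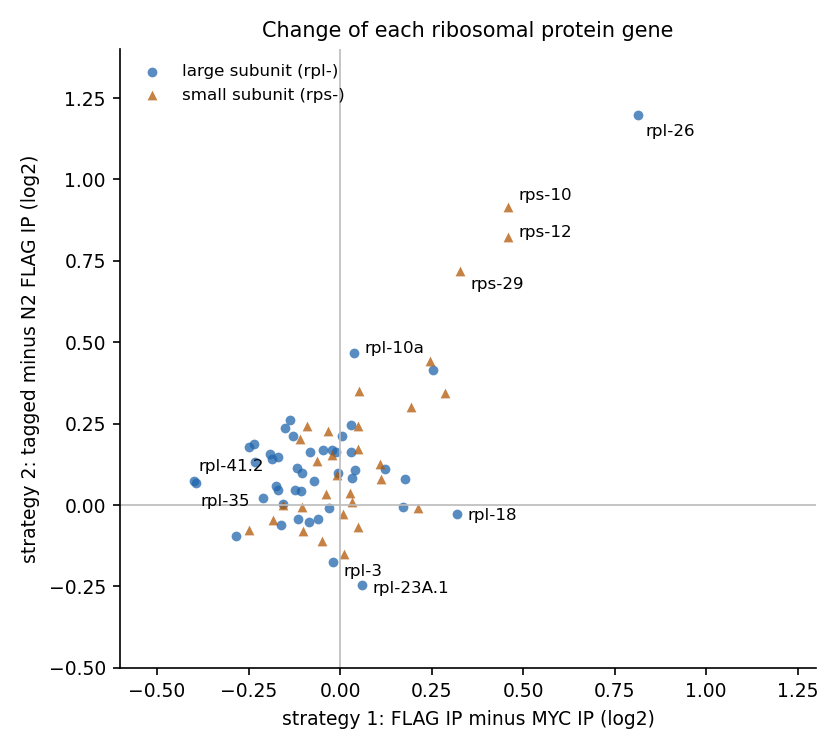
Difference of each of the 75 ribosomal protein genes in strategy 1 (x axis, FLAG IP minus MYC IP, log2) and strategy 2 (y axis, tagged minus N2 FLAG IP, log2); circles are large and triangles small subunit genes. Most lie within 0.5 of 0 on the deposited scale, none is called, and rpl-26 (0.81 and 1.20) lies farthest out; medians are negative under quantile normalization and cyclic loess.

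For the large subunit, the median difference was -0.09 in strategy 1 and 0.10 in strategy 2 over 45 genes, with 13 and 35 of them positive. The gene farthest from 0 in both was rpl-26. It had 6.60, 8.06 and 9.58 in FLAG and 6.12, 6.92 and 8.75 in MYC, and 8.47, 8.04 and 7.13 in tagged against 7.32, 6.63 and 6.09 in N2. Same-set groups overlapped, with differences of 0.81 ± 0.86 (SE, adjusted p = 0.563, limma) and 1.20 ± 0.86 (adjusted p = 0.329, limma). Its second probe set had 0.78 and 1.36, and both of its probe sets are marked as of shared sequence.

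Other genes at the exit tunnel did not share this value. The difference of rpl-35 was -0.39 ± 1.13 in strategy 1 and 0.07 ± 1.13 in strategy 2, and rpl-17 and rpl-19 had -0.17 and -0.23 in strategy 1 and 0.06 and 0.19 in strategy 2. The lowest member of strategy 2 was rpl-23A.1, with -0.25 ± 0.85, against 0.06 ± 0.85 in strategy 1. Its partner rpl-23A.2 had -0.07 and 0.07. The genes of protein L11, which binds 5S ribosomal RNA, had -0.17 and 0.15 for rpl-11.1 and -0.28 and -0.10 for rpl-11.2, and rpl-41.1 and rpl-41.2 had -0.19 and -0.40 in strategy 1 and 0.14 and 0.07 in strategy 2. The partners of each pair differed by less than the SE of either, and most of these probe sets are marked as of shared sequence, so the pairs may not be measured apart. At rpl-3, whose protein reaches the peptidyl transferase centre, the difference was -0.02 ± 1.11 in strategy 1 and -0.17 ± 1.11 in strategy 2.

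For the small subunit, the median difference was 0.02 in strategy 1 and 0.11 in strategy 2 over 30 genes, with 17 and 20 of them positive. Its 3 highest members were the same in both strategies. The gene of S10, a protein near the mRNA entry, rps-10, had 5.58, 7.64 and 9.33 in FLAG and 5.70, 6.82 and 8.66 in MYC, and 7.72, 7.38 and 6.72 in tagged against 7.15, 6.02 and 5.90 in N2. Groups overlapped, and the differences were 0.46 ± 0.99 (adjusted p = 0.788, limma) and 0.92 ± 0.99 (adjusted p = 0.529, limma). Its other probe sets had smaller differences, 0.40 and 0.64 for the first of them and 0.23 and 0.46 for the other.

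The gene rps-12, of a protein in the beak of the small subunit, had 5.68, 8.06 and 9.85 in FLAG and 5.55, 7.56 and 9.11 in MYC, and 8.35, 7.91 and 7.15 in tagged against 7.77, 6.75 and 6.41 in N2. The groups overlapped in both sets, with differences of 0.46 ± 1.13 and 0.82 ± 1.13. For rps-29, of a zinc-binding protein in the head, the values were 6.54, 7.99 and 9.72 in FLAG, 6.50, 7.71 and 9.06 in MYC, 8.34, 7.90 and 7.14 in tagged and 8.06, 7.21 and 5.95 in N2. It overlapped too, with 0.33 ± 0.93 and 0.72 ± 0.93. Other members stayed closer to 0: rps-5, whose protein lines the mRNA exit, had -0.05 and -0.11, and rps-20 had 0.01 and -0.15.

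Because the common shift made up most of the spread, each gene was also set against the ribosomal protein median of its own array. On the deposited values 0 of 75 genes had groups that did not overlap in strategy 1. Of all probe sets, 6.14% were wholly higher there and 6.02% wholly lower. In strategy 2 it was again 0 of 75, where these shares were 14.9% and 42.5%. The 42.5% can include probe sets at the arrays' lowest values, which were lower on tagged than on N2 arrays. On the relative scale 5 genes were wholly higher in strategy 1 (rpl-15, rpl-18, rpl-26, rps-10 and rps-12), against 3.22% of all probe sets, and 5 wholly lower (rpl-17, rpl-19, rpl-21, rpl-35 and rpl-41.2), against 0.0222%. In strategy 2, 6 of the 75 were wholly higher (rpl-26, rps-2, rps-10, rps-12, rps-13 and rps-29), a share near the 8.63% of all probe sets, and 4 wholly lower (rpl-8, rpl-10L, rpl-23A.1 and rps-27A), against 0.217%. A scale centred on the members places members on both sides by construction, and most other probe sets lie near the arrays' lowest values, so the low background of the lower direction says nothing of the members. With the arrays centred this way limma called 0 of 75 in each strategy, against 0.883% and 1.71% of all probe sets called higher and 0% lower. In that fit every member had an SE of 0.958 to 1.06. The SE came mostly from the pooled spread of all probe sets (44.7 prior against 8 residual degrees of freedom). The members' own relative SDs had medians of 0.129 to 0.189 in the IP groups. That 0 of 75 therefore says nothing about the genes whose groups did not overlap.

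Wholly higher in both strategies were 3 of the 75 genes, rpl-26, rps-10 and rps-12, a share near the 3.15% of all probe sets. The count does not set the family apart, and the genes are described singly. None was wholly lower in both, against 0% of all probe sets. Relative to its array's median, rpl-26 had 0.85, 0.07 and -0.27 in FLAG and -0.39, -0.79 and -0.64 in MYC, and 0.67, 0.61 and 0.40 in tagged against -0.65, -0.48 and -0.34 in N2. The FLAG replicates were spread over more than a log2 unit, and the groups stayed apart in both sets. For rps-10 these were -0.16, -0.34 and -0.52 in FLAG and -0.81, -0.89 and -0.73 in MYC, and -0.09, -0.04 and -0.01 in tagged against -0.82, -1.09 and -0.54 in N2. Its groups came closest at -0.52 against -0.73 in set 1. For rps-12 they were -0.07, 0.07 and 0.01 in FLAG and -0.96, -0.15 and -0.29 in MYC, and 0.54, 0.48 and 0.42 in tagged against -0.21, -0.36 and -0.02 in N2. MYC replicate 1 lay far below the other MYC arrays.

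**Figure D4:**
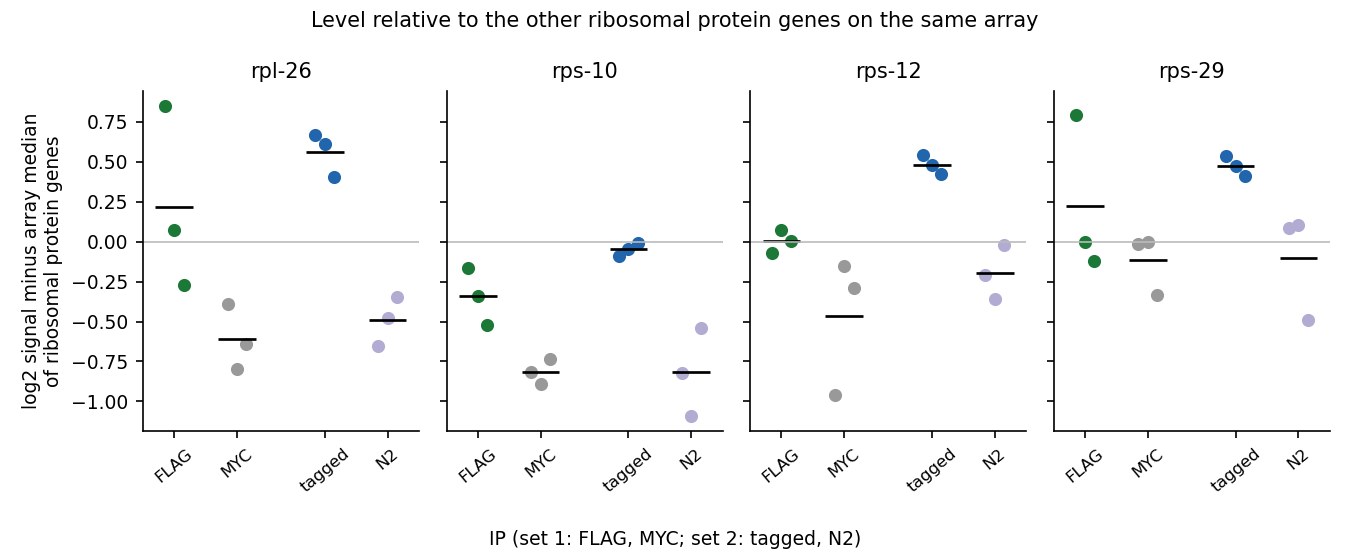
Log2 signal of 4 genes minus the ribosomal protein median of the same array (y axis), by IP group (x axis, set 1 left and set 2 right); points are the 3 arrays of a group and bars their means. The groups of rpl-26, rps-10 and rps-12 do not overlap in either set, and rps-29 is apart in set 2 alone (0.53, 0.47 and 0.41 in tagged against 0.09, 0.10 and -0.49 in N2).

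The difference of a gene less the median difference of the family kept its sign for these genes under each scaling and choice of probe sets run, where the differences themselves turned negative under quantile normalization and cyclic loess. For rpl-26 it was 0.85 in strategy 1 and 1.10 in strategy 2 on the deposited values. Quantile normalization gave 1.00 and 1.20, and cyclic loess 0.85 and 1.12. The settings run were the deposited values, 3 scalings, the mean of its probe sets and each array left out in turn. Over these it lay between 0.57 and 1.11 in strategy 1 and between 1.03 and 1.20 in strategy 2. For rpl-26 and rps-29 no probe set without shared sequence was available, so that choice was run for rps-10 and rps-12 alone. For rps-12 the strategies spanned 0.27 to 0.66 and 0.65 to 0.82, and for rps-10 they spanned 0.25 to 0.74 and 0.37 to 1.15. The low ends of rps-10 came from its probe set without shared sequence. For rps-29 they were 0.11 to 0.59 and 0.39 to 0.73. These genes were singled out after their values were seen.

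No member was called in the difference between the strategies or between the control IPs. The difference of strategy 1 minus strategy 2 had a median of -0.17, and 0 of 75 genes were called by limma, with 0% of all probe sets called and 0 members at an unadjusted p under 0.05. The sign of that median turned to 0.97 under quantile normalization and 1.03 under cyclic loess, and it was 0.85 without FLAG replicate 1, -1.18 without FLAG replicate 3, 0.57 without MYC replicate 3, 0.18 without N2 replicate 3 and 0.07 without tagged replicate 1. Leaving out any other single array kept the median below 0, between -0.83 and -0.11, and 0 members were called throughout. Across the 74 genes, differences in the strategies had a Pearson r of 0.652, a description over genes of sets that share no array but share probe sets; 23 genes were positive in both and 13 negative in both. In the MYC minus N2 comparison all 75 were positive, with a median of 0.68 and a median SE of 1.03. There too 0 of 75 were called, with 0% of all probe sets called and 0 members at an unadjusted p under 0.05. That median was -0.09 without MYC replicate 3. The MYC and N2 IPs differ in antibody, strain and set together, and these cannot be told apart.

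Of 36 further probe sets of 32 of these genes, none was called in either strategy. Strategy 1 gave them differences of -0.27 to 0.78 and strategy 2 of -0.11 to 1.36, which departed from that of the chosen probe set by a median of 0.13 and at most 0.34, at a probe set of rps-10. In input 32 of the 36 were at 11 or more and 2 were under 5.

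Genes of the ribosome with other names gave no call either. The stalk proteins rplp-0, rplp-1 and rplp-2.2, the ubiquitin fusion gene ubq-2 and the scaffold rack-1 gave 0 of 5 called in each strategy, with medians of 0.17 and 0.18. Of these, rack-1 was highest, with 0.53 and 0.64. Genes of the mitochondrial ribosome, which is built from other proteins, gave 0 of 59 called in strategy 1 and 1 in strategy 2, where 2.41% and 5.47% of all probe sets were called higher, with medians of 0.15 and 0.11. The 1 was mrpl-28, with 4.67, 4.15 and 4.14 in tagged and 2.58, 2.91 and 2.68 in N2, a difference of 1.60 (adjusted p = 0.0174, limma), which was not called without tagged replicate 1 or N2 replicate 1 or 3 (adjusted p = 0.0809, 0.0661 and 0.0704, limma).

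Of 21 initiation factors, 3 were higher in each strategy and none lower, where 2.41% of all probe sets were called higher in strategy 1 and 5.47% in strategy 2. The list medians were 0.39 and 0.53. The poly(A)-binding protein gene pab-2 had 6.12, 7.41 and 7.84 in FLAG against 3.29, 3.62 and 4.19 in MYC, and 7.55, 6.95 and 6.34 in tagged against 3.66, 3.36 and 2.98 in N2, with no overlap and differences of 3.42 ± 0.47 (adjusted p = 0.00719, limma) and 3.62 ± 0.47 (adjusted p = 0.0028, limma). The other two were eif-3.C, a subunit of initiation factor eIF3 (2.44 and 2.69), and ifg-1, the eIF4G scaffold (2.30 and 2.36). These sizes depended on the probe set: with the probe sets of each gene averaged, pab-2 had 1.79 and 1.88, ifg-1 1.13 and 1.23 and eif-3.C 1.69 and 1.73, with the strategy 1 call of eif-3.C lost (adjusted p = 0.0572, limma). Of 15 genes of the nucleolus and ribosome assembly, 0 were called in strategy 1 and 2 in strategy 2 (2.41% and 5.47% of all probe sets were called higher), dao-5 (2.50, adjusted p = 0.0479, limma) and ncl-1 (1.39, adjusted p = 0.0155, limma, and 0.70 over the mean of its probe sets). In a fit of the 6 arrays of strategy 1 alone, pab-2, eif-3.C and ifg-1 lost their calls, and so did gld-1 (adjusted p = 0.151, limma). The call of dao-5 was lost with any 1 array of set 2 left out (adjusted p = 0.0897 to 0.183, limma), that of ncl-1 without tagged replicate 1 or 2 or N2 replicate 3 (0.0741, 0.0662 and 0.0723), and in strategy 1 those of eif-3.C and ifg-1 without FLAG replicate 2 or 3 or MYC replicate 1 or 2.

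Elongation factors split within 1 paralog pair. Both genes encode eEF1A, the factor that brings aminoacyl-tRNA to the ribosome. The eef-1A.1 gene had 7.47, 9.56 and 11.02 in FLAG and 8.31, 9.34 and 10.79 in MYC, and 9.50, 9.19 and 8.30 in tagged against 9.72, 8.92 and 8.35 in N2. These overlapped, with differences of -0.13 and 0.00, as among the members. The eef-1A.2 gene had 7.59, 8.82 and 8.92 in FLAG and 4.27, 5.44 and 6.25 in MYC, and 9.31, 8.79 and 8.41 in tagged against 5.36, 5.08 and 4.02 in N2. These did not overlap, with differences of 3.12 ± 0.58 (adjusted p = 0.0271, limma) and 4.01 ± 0.58 (adjusted p = 0.00435, limma). Both probe sets are marked as of shared sequence. With only unshared probe sets eef-1A.2 had 1.00 (adjusted p = 0.289, limma) and 1.04 (adjusted p = 0.172, limma), so its size is uncertain, with 1.38 and 1.70 over the mean of its probe sets, and its strategy 1 call was lost in the mean and without FLAG replicate 2 or 3 or MYC replicate 1 or 2. It was the 1 call among 8 elongation factors in each strategy, where 2.41% and 5.47% of all probe sets were called higher, and the list medians were 0.07 and 0.14.

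**Figure D5:**
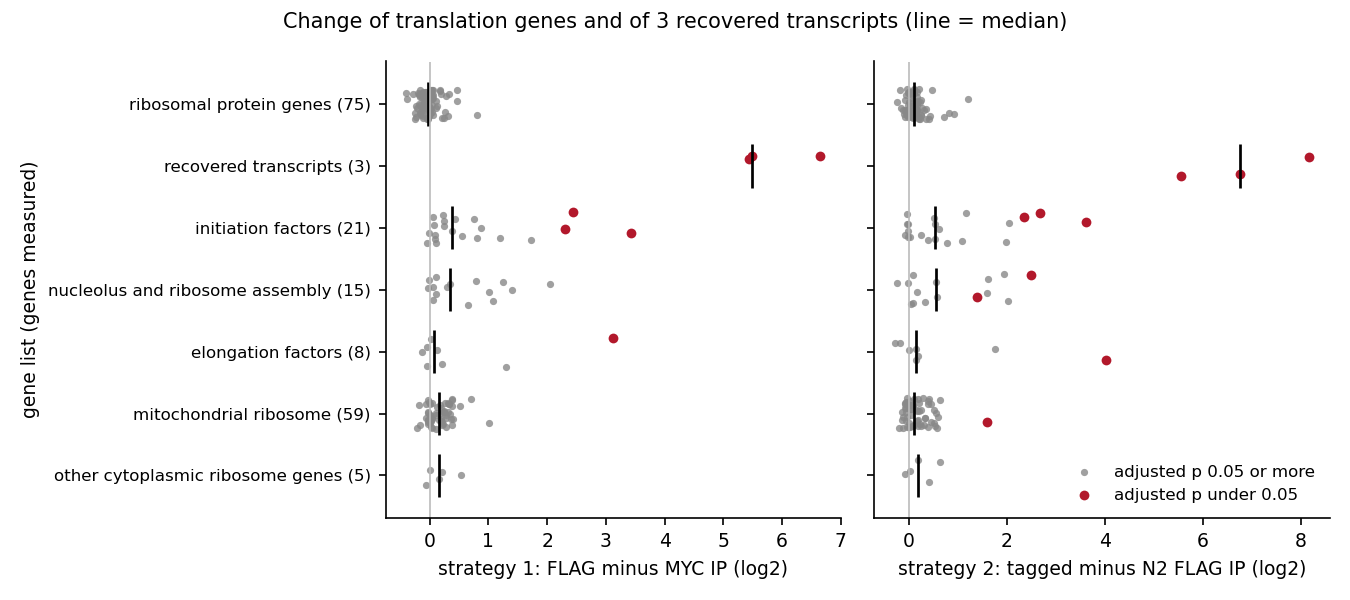
Differences of the ribosomal protein genes and of related gene lists in strategy 1 (left, x axis, FLAG minus MYC IP, log2) and strategy 2 (right, x axis, tagged minus N2 FLAG IP, log2), by list (y axis, genes measured); points are genes, red where adjusted p was under 0.05, and lines are medians. No ribosomal protein gene is called on the deposited scale shown, where their medians are -0.03 and 0.10 and turn negative under quantile normalization and cyclic loess, while gld-1, oma-2 and rme-2 lie at 5.43 or above.

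Recovered transcripts give the scale for these values. In the FLAG and tagged IPs, oma-2, an oocyte maturation gene, lay above the ribosomal protein median by 4.22, 3.60 and 1.89 and by 5.00, 4.98 and 5.38, while in input the same difference was -2.32, -2.47 and -2.15. No member exceeded it on any FLAG or tagged array, and 74 did on every input array. The yolk receptor gene rme-2 was exceeded by 0, 0 and 10 members on FLAG arrays and by none on tagged arrays, and gld-1 by 0, 0 and 54 and by none. These compare probe sets of different genes across arrays, and are not amounts of RNA. FLAG replicate 3, where the members stood highest, was the array on which the margins were smallest.

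The genes whose profile over the 12 IP arrays was most like the ribosomal protein median were eef-2, the elongation factor of translocation (Pearson r = 0.9987), cox-5B, a subunit of cytochrome c oxidase (0.9945), fau-1 (0.9939), eef-1A.1 (0.9936) and rplp-2.1, a stalk protein (0.9919). The members themselves had 0.876 (rpl-26) to 0.997, leaving out rpl-42. Of 17043 other genes, 474 reached the lowest member's value. The arrays share depth and amplification shifts, and these are given as a description. The same 5 genes had input means of 11.89 to 13.29.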

How the data were processed

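The deposited values are log2 signals, 1 per probe set and array, which the authors made with GCRMA per the submitters' processing notes (version not given). The arrays kept different lowest values, and the values were used as deposited. The 77 control probe sets among 22625 were dropped. The linear models (limma 3.58.1 under R 4.3.3, with eBayes) ran over the 12 IP arrays for the comparisons among IPs and over all 15 for those with input, and p-values were adjusted by Benjamini-Hochberg over 22548 probe sets. The number of arrays limits the precision. The fit was run on simulated data with independent noise for each probe set and array. These lack the shift common to an array, so that run says nothing of how the fit handles the members' spread. Errors of differences are SEs. Named genes were the 4 highest and lowest members per comparison, paralog pairs, those with the largest or smallest spread, called members of lists and the 5 most alike genes; others named were chosen after their values were seen. Members and lists were chosen with earlier results of these data known. The initiation factor list left out 1 gene listed in error (ifb-1), and eif-1, nol-1, nol-5 and ssp-9 had no probe set of their own. No sequences were used.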

Additional observations from a re-analysis of the deposited data

How the results depend on the processing

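The number of ribosomal protein genes called in the strategies depended on scaling. Quantile normalization called 22 in strategy 1 and 74 in strategy 2 (all lower), and cyclic loess 73 and 74 (all lower), against 0 and 0 on the deposited values. Under quantile normalization, strategy 1 gave -1.54 for rpl-23A.1, -1.12 for rps-10, -1.70 for rps-20 and -1.60 for eef-2, each turned from a positive difference. Under cyclic loess it gave -2.33 for rpl-26, -2.44 for rps-10, -2.70 for rps-12, -2.39 for rps-20, -2.93 for rps-29 and -2.73 for eef-2. In strategy 2 quantile normalization gave -2.27 for rpl-11.1, -2.36 for rpl-23A.2, -1.24 for rpl-26, -2.61 for rpl-35, -2.05 for rpl-41.1, -3.02 for rpl-41.2, -2.27 for rpl-7, -1.60 for rps-10, -1.62 for rps-12, -1.73 for rps-29, -3.09 for eef-1A.1 and -2.30 for eef-2. Cyclic loess there gave -3.61 for rpl-11.1, -3.78 for rpl-23A.2, -3.09 for rpl-26, -4.59 for rpl-35, -2.72 for rpl-41.1, -5.25 for rpl-41.2, -3.58 for rpl-7, -3.06 for rps-10, -3.50 for rps-12, -3.72 for rps-29, -5.55 for eef-1A.1 and -3.64 for eef-2. The cause was not tested.

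Against input, quantile normalization called 48 genes in FLAG (all lower), 10 in MYC (9 higher) and 11 in N2 (8 higher), and cyclic loess called 66 in MYC (65 higher) and 63 in N2 (62 higher). Arrays centred on ribosomal protein genes left 1, 2, 1 and 1 called in FLAG, tagged, MYC and N2, since the centring removes the family's own difference, and it moved the median of all probe sets to 4.51, 5.14, 4.47 and 5.17. Centring on the array median moved it to 0.10, 0.19, 0.05 and 0.05. In strategy 2 the centring on ribosomal protein genes moved it to -0.18. Without probe sets of shared sequence 35 members were left, and 35 were called in each (33 lower). The group mean of the array medians became 9.35 in MYC, 9.34 in N2 and 9.25 in input under quantile normalization. It was 6.73 in tagged and 12.93 in input without shared sequence, and 12.90 in input as a mean over members. The median SD between replicates under quantile normalization was 0.826 in FLAG, 0.146 in MYC, 0.179 in tagged and 0.125 in N2.

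With each array left out in turn, 0 genes were called in either strategy, in their difference or between the controls, and 74 to 75 against input. Of the list genes, pab-2 kept its calls, and eef-1A.2, eif-3.C and ifg-1 lost theirs in strategy 1 without FLAG replicate 2 or 3 or MYC replicate 1 or 2.

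Deviations of same-numbered arrays had a correlation of 0.803, -0.07 and 0.873 in set 1 and 0.511, 0.037 and 0.52 in set 2. Because of the values near 0 at replicate 2, the rule used did not take the numbers as pairing the samples. Replicate 2 had the middle ribosomal protein median in every IP group, close to the group mean. A shift common to the array is small there, so these values near 0 cannot decide against pairing. Between arrays numbered 1 and 3 the correlations were -0.83 and -0.837 in set 1 and -0.496 and -0.525 in set 2. Whether the numbers pair the arrays is therefore not settled. A block within each IP set had a median member SE of 0.253, against 1.03 without it. The replicate block left 0 genes called in each strategy. With a block within each IP set, a fit chosen after seeing the data, strategy 1 called 0 genes and strategy 2 called 3, rpl-26, rps-10 and rps-12 (adjusted p = 0.0134, 0.0428 and 0.0393, limma), where 11.6% of all probe sets were called higher and 24.5% lower, and it changed no other call of the members. The 24.5% can include probe sets at the arrays' lowest values, which were lower on tagged than on N2 arrays.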
